A study of Homo sapiens with 9 samples.

Results

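Transcripts annotated as nonsense_mediated_decay (NMD) were examined as a class in nuclear RNA of U2OS cells depleted of dyskerin or of GAR1. Members were chosen by annotation and by measured values: the GENCODE transcript type nonsense_mediated_decay and a mean of at least 20 estimated reads over the 9 libraries. This selected 10415 of the 14506 NMD transcripts in the files, out of 95447 matched transcripts with at least 20 reads and 200401 transcripts listed in all. They came from 4961 genes, every one of them protein_coding. A single member came from 2530 of these genes, and PIGT had the most, with 35. Because the selection used the mean over all libraries, the read level of the members is a description and is not tested.

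NMD is a surveillance pathway that degrades mRNAs whose reading frame ends prematurely. During translation in the cytoplasm, a ribosome that stops well upstream of an exon junction leaves the exon junction complex in place, and UPF1 and the SMG proteins then commit the mRNA to decay. Many genes of splicing factors and ribosomal proteins produce such transcripts through poison exons or exon skipping, which lowers their own protein output.

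U2OS is a human osteosarcoma cell line. Cells were transfected for 48 hours with siRNA at 15 nM, targeting dyskerin (siDyskerin), targeting GAR1 (siGAR1) or serving as control (siControl), and nuclear RNA depleted of ribosomal RNA was sequenced from 3 replicates per group. Dyskerin, encoded by DKC1, is the pseudouridine synthase of the H/ACA ribonucleoprotein, and GAR1 is one of its partner proteins. Each knockdown was transient and made in 1 cell line, and the labels do not say whether the replicates, which the study calls biological, were separate cultures, so p-values measure the spread between these libraries.

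The stop codon is what sets these transcripts apart, and the coding bases that run into it are shown for members of the results below. Each line gives up to 30 coding bases, 5′ to 3′, from within the exon that holds the stop, with the premature stop codon in capitals, as given for the transcript in GENCODE 44 on GRCh38.
NDUFV2-208: cccttctcttgctctccgtgtctccctTAG
PPIA-205: ggactttcacatgtctttggagtagaaTAA
ZNF655-211: gtacagtgggaagctgggatTAG
TAF1D-202: gcatactccacacatctgtaccattctTGA
TRA2B-205: aatgagtatttgaagctcaggaataagTGA
SRSF7-204: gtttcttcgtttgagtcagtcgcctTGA
CLK1-204: atgaaattgttgatacttTAG
YY1AP1-215: ccagcttctgttactgatgTAA
The first 4 are among the members with the smallest p-values for a change of usage. TRA2B-205, SRSF7-204 and CLK1-204 come from genes of splicing regulators, and YY1AP1-215 carries its stop in a cassette exon, one that other transcripts skip whole. The stop of NDUFV2-208 lies at chr18:9102861-9102863 and that of PPIA-205 at chr7:44823180-44823182, both on the plus strand, and that of TAF1D-202 at chr11:93733362-93733364 on the minus strand. The stop of ZNF655-211 lies at chr7:99563208-99563210 on the plus strand, in an exon of 79 nt of which it ends at base 23, and ZNF655-206 ends at the same stop. The stop of TRA2B-205 lies at chr3:185931772-185931774 on the minus strand, in an exon of 276 nt. The stop of SRSF7-204 lies at chr2:38749319-38749321 on the minus strand, ending at base 28 of an exon of 449 nt. All 6 of these stops are in sequence that is part of no annotated coding transcript, whereas CLK1-204 stops inside coding sequence of another CLK1 transcript, at chr2:200859726-200859728 on the minus strand.

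Over the class, 10391 of 10407 members with an annotated stop (99.8%) had it more than 50 nt before the last exon junction, against 0.904% of 18689 coding transcripts of the same genes with at least 20 reads. This distance belongs to how the type is assigned and is not a finding. The stop lay inside coding sequence of a coding transcript for 5419 members (52.1%) and in sequence of no coding transcript for 3748 (36.0%). It was shared with a coding transcript for 963 (9.25%), as for SRSF1-204 and SRSF2-208, and lay in untranslated exon sequence of one for 277 (2.66%). TGA was the annotated stop of 58.7% of members, TAG of 19.1% and TAA of 22.2%, stops shared with a coding transcript included. Coding transcripts of the same genes ended in TGA in 51.3%, TAG in 20.9% and TAA in 27.8%. Members were shorter than these coding transcripts, with a median length of 1025 against 1530 nt, and had a median reading frame of 288 against 1281 nt where the start was annotated.

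Estimated reads per library summed to between 48838756 and 90698675 over all transcripts. The reads of a transcript were a whole number for 99.998% to 100% of transcripts in each library. In 332 of 332 pairs of transcripts of which one is wholly contained in the other, the longer never had fewer reads, in each library. This is the pattern that arises when a read is counted in each transcript that it fits. The quantification tool named by the study normally divides such reads among transcripts, and the sources used here do not settle which was done, so a member's share can include reads that it has in common with coding transcripts. The targeted genes checked the labels: DKC1 fell by 2.79 on the log2 scale in siDyskerin (adjusted p = 1.46e-11, edgeR quasi-likelihood test on gene sums) and GAR1 fell by 2.68 in siGAR1. Among bone markers SPARC was at 694 TPM, the transcript-length-scaled unit of the files, in siControl and COL1A1 at 25.1 TPM, while SP7, IBSP and COL1A2 were at or near 0. KRT8 (345 TPM) and KRT18 (185 TPM) were detected among epithelial markers, and the blood marker CD3E was at 0.

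Members ranged widely in abundance. Their mean count had a median of 209 reads, and ran from 39.9 to 1307 reads when the extreme 10% at each end are left out, and ACTB-203 had the most (52022 reads). At the threshold, the highest mean outside was 19.9 reads and the lowest inside was 20, with 64 NMD transcripts between 19 and 20 reads and 52 between 20 and 21. All 10415 passed the low-count filter of the level test, and 222 had a mean under 20 reads in at least 1 of the 3 groups. In siControl, the median member took 6.94% of its gene's reads, and the middle 90% of members took between 0.983% and 29.1%. The SD of a share between replicates had a median of 0.233 percentage points.

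As a class, NMD transcripts held between 17.24% and 17.31% of their genes' reads in all 9 libraries. Their summed reads were 17.31%, 17.31% and 17.26% of the reads of their genes in the siControl libraries. In siDyskerin the values were 17.24%, 17.31% and 17.25%, and in siGAR1 17.29%, 17.30% and 17.27%. The 3 groups overlapped. Where a read is counted in each transcript that it fits, the class share responds only weakly to a change of NMD transcripts. A flat share then does not show that their use was unchanged. The class share differed from siControl by -0.0265 percentage points in siDyskerin and by -0.0072 in siGAR1, both less than the SD between the siControl replicates (0.0312). From TPM in place of reads these differences were 0.0086 and -0.0450, and with coding and NMD transcripts alone as denominator the first was -0.0852. Leaving out 1 library gave -0.0459 to -0.0140 and -0.0252 to 0.0028. The differences between the knockdowns and siControl use the same 3 siControl libraries. With 3 libraries against 3, no exact two-sided test could go below p = 0.1.

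**Figure D1:**
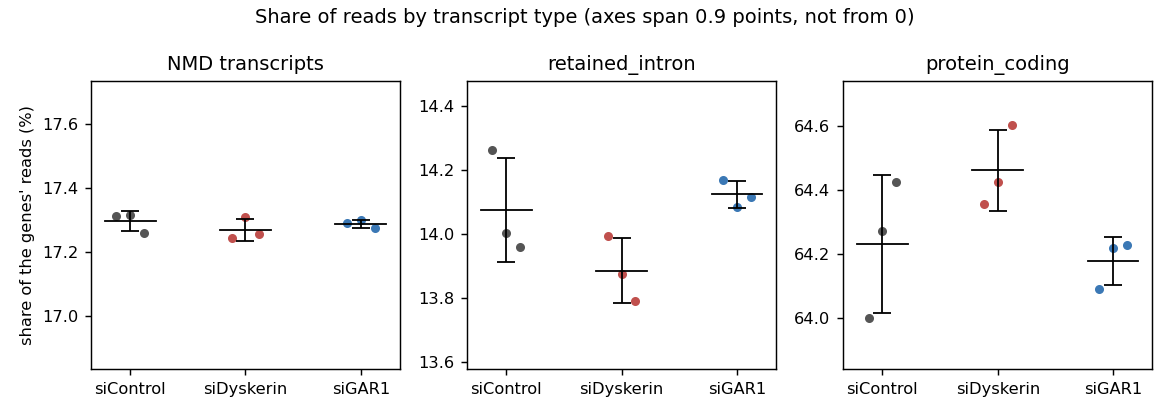
Share of the reads of the 4961 member genes (y axis, percent, drawn over 0.9 points and not from 0) taken by NMD members, retained_intron and protein_coding transcripts in each library (points), with the group mean and SD (lines and bars). The NMD points lie between 17.24% and 17.31% in every group, a narrower band than either of the other types.

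The retained_intron and protein_coding transcripts of the same genes moved more from library to library than the NMD class did. Retained_intron transcripts, which keep an intron, took 14.26%, 14.00% and 13.96% in siControl, 13.99%, 13.87% and 13.79% in siDyskerin and 14.17%, 14.09% and 14.12% in siGAR1. The siDyskerin libraries were below the siGAR1 libraries without overlap, by 0.238 percentage points, and both overlapped siControl. Protein_coding transcripts took 64.2% ± 0.215 (SD, n = 3) in siControl, 64.5% ± 0.127 in siDyskerin and 64.2% ± 0.0755 in siGAR1. The NMD share minus the retained_intron share was 3.22 ± 0.148 points in siControl, 3.38 ± 0.115 in siDyskerin and 3.16 ± 0.0462 in siGAR1. Split by where the stop lies, members with a stop in sequence of no coding transcript held 5.83% of the genes' reads in siControl, 5.84% in siDyskerin and 5.84% in siGAR1. Members that share their stop with a coding transcript held 1.90%, 1.87% and 1.90%, and those with a stop in untranslated sequence of a coding transcript 0.467%, 0.459% and 0.466%, the siDyskerin libraries lying below all others in the last kind.

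Few single members were called for a change of usage, that is, of their level against the other transcripts of the gene. With edgeR's diffSpliceDGE over 104054 transcripts at an adjusted p below 0.01, 0 of 10295 members were called in siDyskerin against siControl. Over all transcripts 0.0269% rose and 0.0125% fell in that comparison, and 72 members (0.699%) had an unadjusted p below 0.05, against 1.22% of all transcripts. In siGAR1 against siControl 2 members rose and 0 fell, where 0.0432% of all transcripts rose and 0.00384% fell, and 78 members (0.758%) had an unadjusted p below 0.05, against 1.55% of all transcripts. Between the knockdowns, 0 members were higher and 2 lower in siDyskerin than in siGAR1, against 0.00769% and 0.0259% of all transcripts, with 86 members (0.835%) at an unadjusted p below 0.05, against 1.40% of all transcripts. In these diffSpliceDGE fits the percentages with an unadjusted p below 0.05 lay well under that nominal level, for members and for all transcripts. The test was thus conservative here, and a low count of calls does not show that few members changed. Limma on the log2 share called 0 members in each comparison, where 0.0%, 0.0% and 0.00577% of all transcripts were called. In that fit 579, 665 and 683 members (5.62%, 6.46% and 6.63%) had an unadjusted p below 0.05, against 6.28%, 7.44% and 7.37% of all transcripts.

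The shares themselves shifted little, with the same limit as the class share where a read is counted in several transcripts. From siControl to siDyskerin the middle 90% of members moved by between -0.652 and 0.596 percentage points, and from siControl to siGAR1 by between -0.656 and 0.656. Only 12 members moved by more than 5 points in siDyskerin and 15 in siGAR1. Libraries of the groups did not overlap upward for 534 members (5.13%) and downward for 641 (6.15%) in siDyskerin against siControl, where the same held for 5.91% and 6.01% of all transcripts with at least 20 reads. In siGAR1 it held upward for 664 members and downward for 679, against 6.75% and 6.65% of all transcripts. Between siDyskerin and siGAR1 it held for 576 and 649 members, against 5.98% and 6.17%. Apart from the downward counts in siDyskerin, at or just above the background, the members' shares lay below those of all transcripts.

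NDUFV2-208, from the gene of a subunit of mitochondrial complex I, had the smallest p for usage in siGAR1. It spans chr18:9102630-9117887 on the plus strand and has 2 exons. It had 111, 116 and 87 reads in siControl, 116, 116 and 69 in siDyskerin and 178, 153 and 137 in siGAR1. As a share of NDUFV2 reads this was 2.09%, 2.51% and 2.78% in siControl, 2.82%, 2.22% and 2.41% in siDyskerin, and 4.02%, 3.72% and 4.16% in siGAR1. All 3 siGAR1 libraries were above the other 6, which overlapped each other. Usage rose by 0.70 ± 0.12 (log2, SE) in siGAR1 against siControl (adjusted p = 0.000863, edgeR) and differed by -0.68 ± 0.12 between siDyskerin and siGAR1 (adjusted p = 0.00292). The gene as a whole was at a log2 difference of 0.03 in siGAR1. The coding transcript NDUFV2-207 rose with it in siGAR1, by 0.88 on the log2 scale (adjusted p = 5.16e-07, edgeR), with 134, 151 and 94 reads in siControl and 269, 205 and 167 in siGAR1. In 14 other settings the call against siControl held in 10, and it was lost without siControl replicate 1, siGAR1 replicate 1 or siGAR1 replicate 3, at log2 changes of 0.59, 0.69 and 0.67. The call between the knockdowns held in 8 and was lost without siDyskerin replicates 2 or 3 or any 1 siGAR1 library, at -0.72 to -0.59.

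PPIA-205 and TMEM18-204 were the other 2 called members. PPIA encodes the prolyl isomerase cyclophilin A. PPIA-205 took 0.760%, 0.816% and 0.742% of PPIA reads in siControl, 0.792%, 1.00% and 0.853% in siDyskerin, and 1.30%, 0.974% and 0.868% in siGAR1. The siGAR1 libraries were above siControl without overlap and overlapped siDyskerin. Its usage rose by 0.45 ± 0.09 (log2, SE) in siGAR1 (adjusted p = 0.00707, edgeR), where its level was at a log2 difference of 0.48 (adjusted p = 0.0657). The call held in 5 of 14 other settings, and the log2 change was 0.26 without siGAR1 replicate 1. Without siControl replicates 1, 2 or 3, siDyskerin replicates 2 or 3 or siGAR1 replicate 2 the call was also lost, at changes from 0.42 to 0.51, and with the replicate block at 0.45.

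TMEM18-204, from the gene of a nuclear membrane protein, took 2.43%, 1.83% and 1.84% of TMEM18 reads in siControl, 1.46%, 1.64% and 1.62% in siDyskerin and 2.85%, 3.05% and 2.33% in siGAR1. The siDyskerin libraries were below all others. Usage in siDyskerin minus that in siGAR1 was -0.82 ± 0.12 (log2, SE, adjusted p = 0.0086, edgeR), and the call held in 6 of 14 other settings. It was lost without siControl replicate 3, any 1 siDyskerin library or siGAR1 replicates 1 or 2, at values from -0.86 to -0.74. The retained_intron transcript TMEM18-206 had similar counts, with 109, 70 and 50 reads in siControl, 56, 70 and 43 in siDyskerin and 102, 97 and 63 in siGAR1, and a usage difference of -0.76 between the knockdowns (adjusted p = 0.0184, edgeR). Against siControl TMEM18-204 was not called in either knockdown (log2 -0.39 in siDyskerin and 0.43 in siGAR1).

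**Figure D2:**
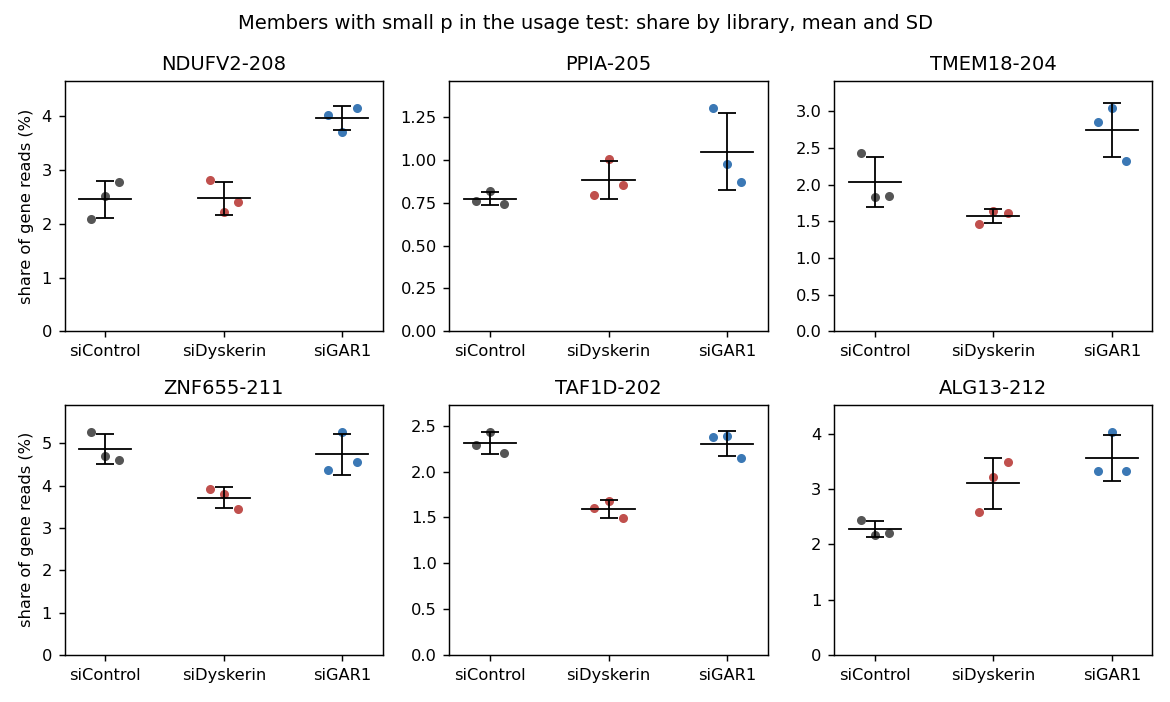
Share of gene reads (y axis, percent, from 0) of 6 NMD members in each library (points) with the group mean and SD (line and bar). NDUFV2-208 is higher in siGAR1 than in all other libraries, whereas ZNF655-211 and TAF1D-202 are lower in siDyskerin.

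Below the threshold, the smallest p-values in siDyskerin belonged to members of ZNF655 and TAF1D. ZNF655 encodes a zinc finger protein. ZNF655-211 took 5.28%, 4.70% and 4.61% of ZNF655 reads in siControl, 3.91%, 3.79% and 3.45% in siDyskerin and 4.37%, 5.27% and 4.56% in siGAR1. The siDyskerin libraries were below all others, with a usage difference from siControl of -0.38 ± 0.09 (log2, SE) that was not called (adjusted p = 0.0821, edgeR). ZNF655-206, which shares its stop, had a usage difference of -0.36 (adjusted p = 0.147, edgeR). Within siDyskerin both transcripts had similar counts, with 837, 876 and 534 reads set beside 778, 816 and 482.

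TAF1D encodes a subunit of the SL1 factor of RNA polymerase I and its introns host small nucleolar RNAs (snoRNAs). TAF1D-202 took 2.29%, 2.44% and 2.21% of TAF1D reads in siControl, 1.60%, 1.68% and 1.49% in siDyskerin and 2.37%, 2.39% and 2.15% in siGAR1. The siDyskerin libraries were below the other 6. Its usage difference from siControl was -0.53 ± 0.14 (log2, SE, adjusted p = 0.254, edgeR), and TAF1D-220, which stops inside coding sequence, had 0.39 (adjusted p = 0.763). The level of TAF1D-202 fell by 1.07 on the log2 scale (adjusted p = 3.53e-08, edgeR) and the gene fell by 0.55. In siGAR1, ALG13-212 had a usage difference of 0.65 (adjusted p = 0.0254) and ANKRD11-217 one of 1.28 (adjusted p = 0.0139), both short of the threshold. They had 105 to 144 and 27 to 61 reads in the siGAR1 libraries.

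Called members mostly changed in the direction of their genes. Over 108808 transcripts at an adjusted p below 0.01 (edgeR), 288 members rose (2.77%) and 357 fell (3.43%) in siDyskerin against siControl, where 3.3% of all transcripts rose and 3.28% fell. In siGAR1 201 members rose (1.93%) and 242 fell (2.32%), against 1.99% and 2.12% of all transcripts. Between the knockdowns, 307 members were higher and 297 lower in siDyskerin than in siGAR1, against 2.81% and 2.73%. Of the 645 members called in siDyskerin, 552 came from a gene that was itself called, and 645 had the sign of the gene's change, whose sum contains their reads. In siGAR1 the gene was called for 335 of 443 members. The member's log2 change minus that of its gene lay between -0.145 and 0.150 for the middle 90% of members in siDyskerin. Without siDyskerin replicate 2 or 3 the members called in siDyskerin numbered 418 and 416, and without siControl replicate 3, siGAR1 replicate 1 or siGAR1 replicate 2 those called in siGAR1 numbered 282, 205 and 276. Between the knockdowns 375 and 334 were called without siDyskerin replicate 1 or 3, and 325 and 380 without siGAR1 replicate 1 or 2. A log2 change beyond 1 was reached by 31 called members (0.298%) in siDyskerin and 14 (0.134%) in siGAR1, against 0.623% and 0.189% of all transcripts.

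The members that fell most clearly in siDyskerin were those of the targeted gene. DKC1-203, with a stop in sequence of no coding transcript, had 2089, 1915 and 1245 reads in siControl, 235, 253 and 155 in siDyskerin and 2100, 1864 and 1430 in siGAR1. Its level fell by 2.87 on the log2 scale (adjusted p = 7.47e-21, edgeR), and its share of DKC1 reads was 7.54% in siControl and 7.14% in siDyskerin. DKC1-204 fell by 3.01, and its share was 7.35% ± 0.0874 (SD, n = 3) in siControl and 6.31% ± 0.352 in siDyskerin, with no call for usage. GAR1, NHP2 and NOP10, the other H/ACA proteins, had no member.

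Outside DKC1, the members with the smallest p-values for level in siDyskerin were close to their genes in size of change. CERK-202, from the gene of ceramide kinase, fell by 1.54 on the log2 scale in siDyskerin, and the gene fell by 1.59. Its share of CERK reads stayed between 27.3% and 29.1% in all 9 libraries. DGUOK-203, from the gene of mitochondrial deoxyguanosine kinase, fell by 1.53 where the gene fell by 1.58. PODXL-203, from the gene of the sialomucin podocalyxin, rose by 1.13 (adjusted p = 5.45e-13, edgeR) with 1772, 1479 and 1108 reads in siControl and 3145, 3215 and 2147 in siDyskerin, and its share was 54.6% and 55.2%.

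In siGAR1, NAA50-205, from the gene of an N-terminal acetyltransferase, rose by 0.83 on the log2 scale (adjusted p = 3.78e-09, edgeR) and also by 0.69 in siDyskerin. ITGB1-216, from the gene of integrin beta 1, rose by 0.69 and 0.72 in these comparisons, which share the siControl libraries. TUBB3-209, from the gene of a neuronal beta tubulin, fell by 0.77 in siGAR1 and by 0.74 in siDyskerin. FZD6-203, from the gene of a Wnt receptor, fell by 0.64 in siGAR1 and rose by 0.39 in siDyskerin, where its gene fell by 0.63 and rose by 0.40.

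Splicing regulators are the classic hosts of NMD transcripts. The 26 members of 13 SR protein genes held 24.3% ± 0.36 (SD, n = 3) of their genes' reads in siControl, 24.8% ± 0.16 in siDyskerin and 24.5% ± 0.40 in siGAR1, with overlap between all groups. None of them passed the usage test in any comparison, and 0 and 1 of them had an unadjusted p below 0.05 in siDyskerin and siGAR1. SRSF1-204 took 15.6% of SRSF1 reads in siControl, 15.7% in siDyskerin and 15.7% in siGAR1. SRSF2-208, from a gene of a speckle marker, took 12.9%, 13.0% and 12.9%, and TRA2B-205, which holds the poison exon shown above, took 13.2%, 13.1% and 13.0%. SRRM2-221, from the gene of a scaffold protein of speckles, took 1.73%, 1.87% and 1.87%, and SF3B1-202, from the gene of a spliceosome subunit, took 6.76%, 6.76% and 6.96%.

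The CLK and SRPK kinases, which phosphorylate SR proteins, were the 1 list of 9 in which no group overlapped another. Their 13 members from 5 genes held 7.90%, 7.96% and 8.22% of the reads in siControl, 8.75%, 8.86% and 8.69% in siDyskerin and 9.51%, 9.08% and 9.23% in siGAR1. The share was lowest in siControl and highest in siGAR1. The mean share of the single members, without weighting, was 6.11% in siControl, 6.11% in siDyskerin and 6.14% in siGAR1. SRPK1, the gene with the most reads of the list, had members at 3.72% of its reads in siControl, 3.88% in siDyskerin and 4.14% in siGAR1. Its gene sum fell by 0.29 in siDyskerin (adjusted p = 0.00879, edgeR) and was at -0.29 in siGAR1 (adjusted p = 0.012, short of the threshold). CLK4, with members at 28.8% ± 0.915 (SD) of its reads in siControl, 29.1% in siDyskerin and 29.2% in siGAR1, was at log2 differences of 0.24 and 0.38, neither called. In the same order, the members of SRPK2 were at 5.06%, 5.11% and 5.11%. Those of CLK1 were at 24.5%, 24.3% and 24.2% and those of CLK3 at 17.3%, 17.0% and 17.1%, without a rise. The summed share weights each gene by its reads. SRPK1, whose members had the lowest share of the list, had 33614 normalized reads in siControl, 27532 in siDyskerin and 27420 in siGAR1. What part of the list's difference came from these weights was not tested.

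The other lists differed by less than 1 percentage point between groups. The 51 members of cytosolic ribosomal protein genes held 14.4% in siControl, 14.5% in siDyskerin and 14.3% in siGAR1. The 44 hnRNP members held 14.9%, 14.8% and 15.3%, the siGAR1 libraries lying above both other groups. The 75 translation factor members held 10.72%, 10.97% and 11.03%, and both knockdowns lay above siControl. The 15 members of snoRNP protein genes, which include the targeted DKC1, held 17.99%, 18.4% and 17.7%, with siDyskerin above both others. Without weighting, the mean share of the single snoRNP members was 9.99% in siControl, 9.91% in siDyskerin and 10.07% in siGAR1. For hnRNPs it was 7.93%, 7.92% and 7.94%, and for translation factors 8.47%, 8.47% and 8.53%. The 66 spliceosome members held 20.8% in each group. The 230 members from 112 snoRNA host genes held 15.8%, 16.0% and 16.0%, and 7 of the 230 rose and 13 fell in level in siDyskerin, where 3.3% and 3.28% of all transcripts did. In siGAR1 7 rose and 4 fell, against 1.99% and 2.12%. No list had a member called for usage, in any of the 3 comparisons.

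**Figure D3:**
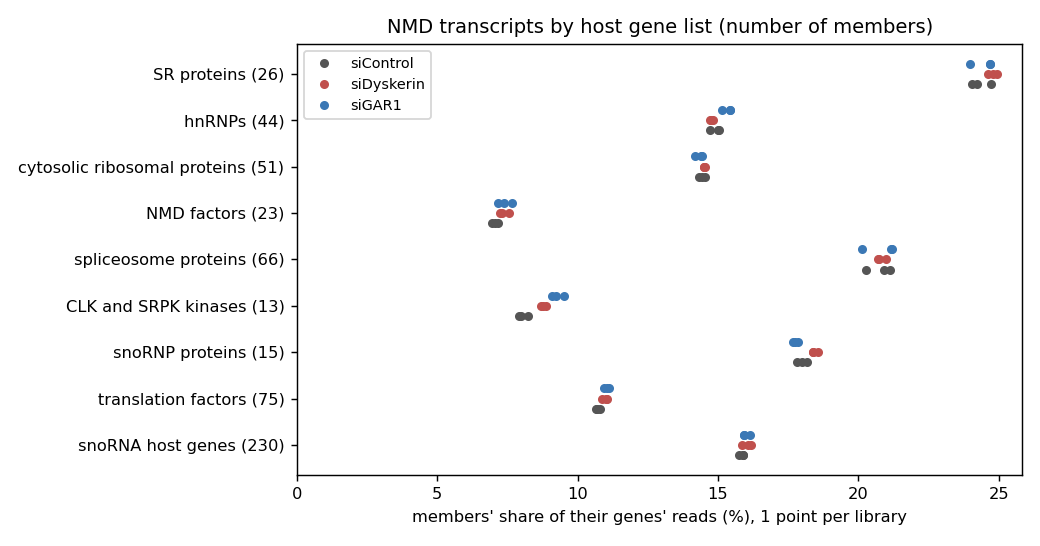
Members' summed share of their genes' reads (x axis, percent, from 0) for 9 host gene lists, 1 point per library, coloured by group, with the number of members in brackets. The CLK and SRPK kinases are the list in which all 3 groups are apart, from 7.90% to 9.51%. A summed share also depends on how reads are divided among the genes of a list.

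Pairs of transcripts that differ by 1 internal exon were compared for the use of that exon. In 159 pairs the exon was in the NMD member and skipped in a coding transcript, and for 109 of them the stop lay within that exon. In 102 pairs the exon was in the coding transcript and skipped in the member, and 99 of these exons had a length that is not a multiple of 3. The ratio of the longer to the shorter transcript had a median of 1.01 in siControl for the first kind and 1.13 for the second. The ratio stayed within 10% of 1 in every group for 93 of 159 and 33 of 102 pairs. Over all pairs it ran from 0.732 to 8.98 in siControl. If a read is counted in each transcript that it fits, both transcripts of a pair hold the reads outside the exon. The ratio then responds only weakly to a change of exon use, and a lack of calls does not show that splicing was unchanged. In limma over all 1858 such pairs, 0 of 261 member pairs were called in each comparison, where 0.0538%, 0.0% and 0.0538% of all pairs were called. An unadjusted p below 0.05 was reached by 21, 25 and 20 member pairs (8.05%, 9.58% and 7.66%), against 6.67%, 6.51% and 6.94% of all pairs.

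YY1AP1-215, with its stop in a 156-nt exon at chr1:155679158-155679313, had the smallest p of the first kind in siDyskerin. Its ratio to YY1AP1-209 was 1.01, 0.998 and 1.00 in siControl, 0.965, 0.977 and 0.967 in siDyskerin and 1.01, 1.01 and 1.01 in siGAR1. The siDyskerin libraries were below the others, by -0.05 on the log2 scale against siControl (adjusted p = 0.0853, limma). SNRNP70-204, whose 72-nt exon of a U1 snRNP gene carries a stop, had ratios of 0.858, 0.847 and 0.849 in siControl, 0.847, 0.845 and 0.860 in siDyskerin and 0.856, 0.865 and 0.897 in siGAR1. RPS15A-210, which skips an 80-nt coding exon of a ribosomal protein gene, had a coding transcript at 4.81, 4.89 and 4.65 times its reads in siControl and between 4.55 and 5.08 times in the knockdowns.

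A few genes of the decay machinery changed. Of 28 factors tested, 2 rose and 2 fell in siDyskerin against siControl at an adjusted p below 0.01 (edgeR), where 3.08% of all genes rose and 3.32% fell. XRN1, the 5′-to-3′ exonuclease, had 1877, 2290 and 2341 normalized reads in siControl and 3117, 3319 and 3363 in siDyskerin, and rose by 0.59 ± 0.09 (log2, SE, adjusted p = 0.000849). GSPT2, a translation termination factor, rose by 0.39 (adjusted p = 0.00952). DCP1A, an activator of decapping, had 2922, 3005 and 2997 in siControl and 2102, 2136 and 2096 in siDyskerin, and fell by 0.49 ± 0.06 (adjusted p = 0.00012). DCP2, the decapping enzyme, fell by 0.33 (adjusted p = 0.00327). The calls of XRN1 and DCP1A held in 14 of 14 other settings. That of DCP2 held in 9 and was lost without siControl replicates 2 or 3 or any 1 siDyskerin library, at -0.37 to -0.31, and that of GSPT2 held in 4 and was lost without any 1 library other than siGAR1 replicate 3, at 0.34 to 0.40, with the replicate block (0.39) and with lengthScaledTPM counts (0.37).

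In siGAR1, 2 factors rose and 0 fell, against 1.63% and 1.79% of all genes. MAGOHB, of the exon junction complex, rose by 0.43 (adjusted p = 0.00537, edgeR) and GSPT1, the paralogous termination factor, by 0.27 (adjusted p = 0.00791). The call of GSPT1 was lost without any 1 of the 9 libraries, at 0.22 to 0.29, without the low-count filter (0.25) and with lengthScaledTPM counts (0.24), and that of MAGOHB held in 8 of 14 other settings and was lost without siControl replicates 1 or 3, siDyskerin replicate 3 or siGAR1 replicates 1 or 2, at 0.36 to 0.43, and with lengthScaledTPM counts (0.38). XRN1 and GSPT2 were at 0.38 and 0.19 in siGAR1, and MAGOHB and GSPT1 at 0.23 and 0.15 in siDyskerin, none of them called. Directly between the knockdowns, XRN1, GSPT2, MAGOHB and GSPT1 were not called (adjusted p = 0.177, 0.167, 0.143 and 0.184, edgeR). DCP1A and DCP2 were at -0.41 and -0.37 in siDyskerin minus siGAR1 (adjusted p = 0.000793 and 0.00217, edgeR). The central factors were not called against siControl: UPF1 was at log2 differences of -0.07 in siDyskerin and -0.03 in siGAR1, UPF2 at 0.08 and 0.07, the kinase SMG1 at 0.04 and 0.07 and EIF4A3 at -0.09 and -0.06. The 23 members of these factors' genes held 7.07%, 7.18% and 6.93% of the reads in siControl, 7.28%, 7.55% and 7.24% in siDyskerin and 7.64%, 7.37% and 7.17% in siGAR1. Without weighting, the mean share of the single members was 6.21% in siControl, 6.22% in siDyskerin and 6.35% in siGAR1.

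**Figure D4:**
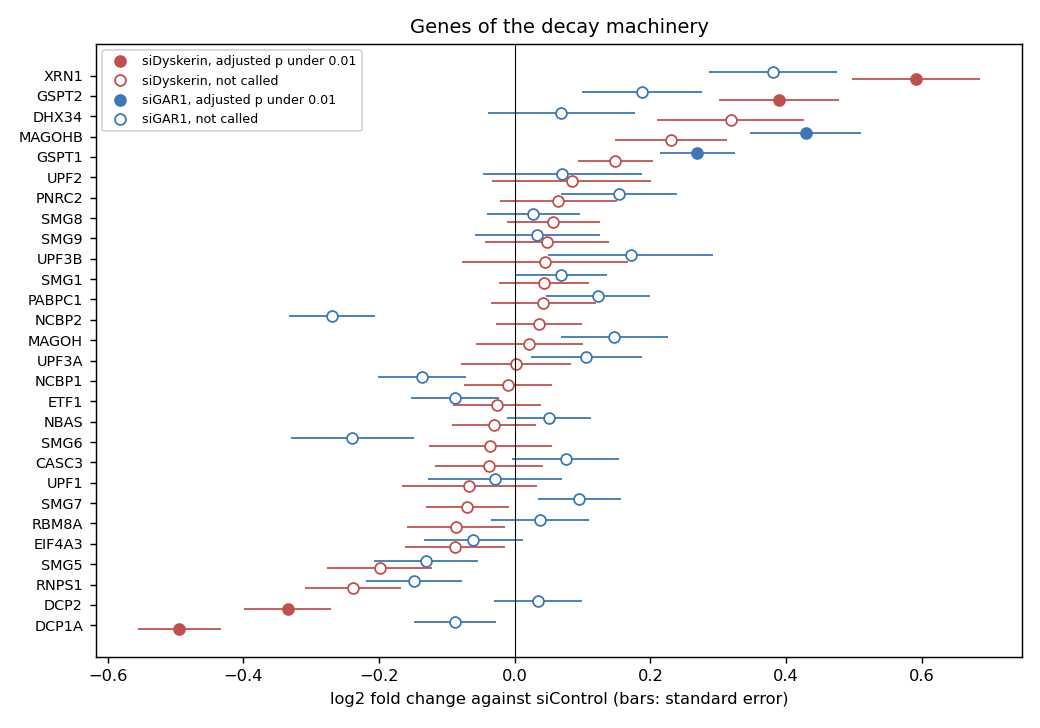
Log2 fold change against siControl (x axis) of 28 genes of the decay machinery (rows), with standard errors as bars and filled points for an adjusted p below 0.01. Filled points are XRN1 and GSPT2 (higher) and DCP1A and DCP2 (lower) in siDyskerin, and MAGOHB and GSPT1 (higher) in siGAR1. The open points of XRN1, GSPT2, MAGOHB and GSPT1 for the other knockdown lie on the same side of 0.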

How the data were processed

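Nuclear RNA of U2OS cells was sequenced in 9 libraries of 3 groups. Per the study's methods, the authors trimmed reads, removed ribosomal and transfer RNA reads and quantified transcripts with Salmon 1.2.0 against GENCODE annotation. The deposited tables hold estimated counts and TPM by the authors. At least 99.998% of the counts in each library were whole numbers as deposited, and the remainder were rounded here. Transcripts were matched by identifier without version to GENCODE 44 (GRCh38), which may type a transcript differently from the authors' release. For 9675 of 10415 members (92.9%) the GENCODE 44 model had the length given with the counts. For the rest, including DKC1-203 and DKC1-204, the stop and frame may belong to a model other than the counted one. Of 200401 transcripts 4514 were unmatched and were left out; they held 3.69% to 3.84% of reads.

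Levels were tested with edgeR 4.0.16 (quasi-likelihood, TMM, robust) and usage with diffSpliceDGE, over all transcripts with Benjamini-Hochberg adjustment and calls below 0.01; transcripts of a gene that share reads are not independent there. Limma 3.58.1 and DESeq2 1.42.0 served as alternatives, and cassette pairs were fitted with limma, a choice made after seeing the data (1858 pairs, 1 read added, ends differing by at most 100 nt in sum). Other alternatives were another scaling, no low-count filter, lengthScaledTPM counts, other thresholds, TPM or another denominator for the share, a replicate block and leaving out each library. The scripts were tested on simulated data, in which counts were drawn independently and no reads were shared between transcripts. The members, lists and tests were chosen with earlier results of these data known, so no p is given for the summed share of the class or of a list. Named members were the 10 smallest usage p-values and 5 smallest level p-values per comparison, the 4 members with the most reads per host list, the 5 with the most reads and the 5 with the highest shares among those with 200 or more reads, and all members of DKC1, GAR1, NHP2, NOP10, SRRM2, SRSF2 and SF3B1; named factors were those called, UPF1, UPF2, SMG1 and EIF4A3. Pairs in the cassette comparison were named after their values were seen.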

Additional observations from a re-analysis of the deposited data

Results flagged for a closer look

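The siDyskerin and siGAR1 effects were compared directly for each member, and 2 members differed in usage at an adjusted p below 0.01 (edgeR's diffSpliceDGE). Usage in siDyskerin minus that in siGAR1 was -0.68 on the log2 scale for NDUFV2-208 and -0.82 for TMEM18-204. Limma on the log2 share called neither, at -0.68 and -0.78.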

How the results depend on the processing

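The class share differed from siControl by -0.0265 percentage points in siDyskerin and -0.0072 in siGAR1, and between the knockdowns by -0.0193. With TPM these became 0.0086, -0.0450 and 0.0536, and with coding and NMD transcripts as denominator the first and last became -0.0852 and -0.0920. Leaving out each library gave -0.0459 to -0.0140, -0.0252 to 0.0028 and -0.0387 to -0.0068. Usage calls in siGAR1 numbered 2, and 4 at an adjusted p below 0.05, 0 with limma and 0 to 3 without a library. In siDyskerin they numbered 0, and 0 to 1 without a library. Between the knockdowns they numbered 2, then 1 without the low-count filter, 0 with limma and 0 to 3 without a library. Level calls were 645, 443 and 604. Requiring a log2 change beyond 1 left 31, 14 and 31, and dropping the filter gave 704 in siGAR1. Without a library they ranged from 416 to 792, 205 to 436 and 325 to 794. Calls of decay factors were 4 in siDyskerin and 2 in siGAR1. In siGAR1 DESeq2 gave 4 and lengthScaledTPM counts 0. Without a library they ranged from 2 to 5 and from 0 to 1. The cause of these differences was not tested.

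Replicate numbers paired the libraries weakly if at all: same-number correlations of deviations ran from -0.072 to 0.104. In 6 of 9 comparisons a library correlated best with the library of its own number. With the replicate block, the fit called 0, 2 and 2 members for usage, 822, 588 and 768 for level, and 3 and 3 decay factors. Low counts limit NDUFV2-208 and TMEM18-204, both under 200 reads per library.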
